A study of Mus musculus with 24 samples.

Results

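The Id family, the inhibitors of differentiation, was followed in primary mouse adipocyte cultures through all probe sets whose annotation named a single symbol among Id1, Id2, Id3 and Id4. A probe set is the group of short probes that measures 1 transcript on an Affymetrix array. The rule gave 4 probe sets, 1 for each gene, of 12488 on the array (4 of the 8252 genes measured by a probe set with a single symbol): 100050_at for Id1, 93013_at for Id2, 92614_at for Id3 and 96144_at for Id4. All 4 passed the filter on low signals that left 8397 probe sets for testing, and none of them was at the lower limit of signal on any array.

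The study set brown against white fat cells, and cells at day 7 against cells at day 4. There were 5 arrays of brown cells at day 7, 5 of brown cells at day 4, 6 of white cells at day 7 and 8 of white cells at day 4, 24 in all. The cells were primary cultures from brown or white adipose tissue. The labels call the cultures differentiated at day 7 and non differentiated at day 4. The strain, age and number of animals, the culture medium and what the array numbers stand for are not given in the sources used here. P-values therefore measure only the spread between arrays, which may be technical.

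Id proteins are small helix-loop-helix proteins without the basic region that contacts DNA. They bind the widely expressed E proteins (Tcf3, Tcf4, Tcf12) and keep them from pairing with tissue-restricted basic helix-loop-helix factors on E boxes, and in many cell types their levels are high in dividing precursors. Id1, Id2 and Id3 are well known target genes of bone morphogenetic protein (BMP) signals carried by Smad proteins, and Id2 and Id4 have been linked to adipocyte differentiation in mice.

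Promoter sequences are shown for the members held in the RefSeq promoter table (GRCm38.p6), because they let the E box, BMP-related and cAMP-related motifs be read next to the array values. They run 5′ to 3′ on the gene's strand, from 250 bases before to 50 bases after the annotated start. Capitals mark every match, on either strand, to the motifs searched. The Id2 window is chr12:25096043-25096342 on the minus strand, the Id3 window is chr4:136143572-136143871 on the plus strand and the Id4 window is chr13:48260866-48261165 on the plus strand.
Id2: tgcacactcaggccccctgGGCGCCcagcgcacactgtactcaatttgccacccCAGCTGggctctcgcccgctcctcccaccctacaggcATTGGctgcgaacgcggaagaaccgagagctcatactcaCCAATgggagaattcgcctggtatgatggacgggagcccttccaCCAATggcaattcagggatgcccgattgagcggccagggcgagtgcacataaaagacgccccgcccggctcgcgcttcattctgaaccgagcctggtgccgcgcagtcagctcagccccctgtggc
Id3: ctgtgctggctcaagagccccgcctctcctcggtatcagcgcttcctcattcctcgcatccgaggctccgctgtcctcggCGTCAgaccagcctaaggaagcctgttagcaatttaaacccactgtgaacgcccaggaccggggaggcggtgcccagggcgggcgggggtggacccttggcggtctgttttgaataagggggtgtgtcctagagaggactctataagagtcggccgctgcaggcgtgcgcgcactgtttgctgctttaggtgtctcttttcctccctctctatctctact
Id4: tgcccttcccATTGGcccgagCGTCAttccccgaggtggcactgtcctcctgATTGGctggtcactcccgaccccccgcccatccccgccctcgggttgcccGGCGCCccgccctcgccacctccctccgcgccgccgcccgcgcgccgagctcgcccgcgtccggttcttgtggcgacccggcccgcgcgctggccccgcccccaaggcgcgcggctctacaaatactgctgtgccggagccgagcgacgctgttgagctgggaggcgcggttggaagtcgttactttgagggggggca
Table entries matched 3 of the 4 members, and Id1 is named only.

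The Id2 window held 1 E box (CANNTG), which 72.3% of all 32851 promoter windows of the same length also held, 1 GC-rich Smad box (GGCGCC, 11.9% of windows) and 3 CCAAT boxes (CCAAT, 37.4%). The Id3 window held 1 short form of the cAMP response element (TGACG, 20.8%) and no other match. In the Id4 window there were 1 such short form, 1 GC-rich Smad box and 2 CCAAT boxes. The remaining motifs, the full cAMP response element (1.79%), the Smad palindrome (0.213%), the Egr-type site (2.91%) and TATAAA (13.6%), had no match in the 3 windows. The short form is contained in the full cAMP response element. GC content was 63.3% for Id2, 60% for Id3 and 73.3% for Id4, against a median of 52.7% over all windows. These are descriptions of letters in short windows and say nothing of binding.

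Values are MAS5 signals, the array software's summary of probe brightness in arbitrary units, brought to a common trimmed mean of 150. Median signals of the arrays lay between 41.9 and 59.0, and pairs of arrays correlated between 0.833 and 0.964 over probe sets. Summed signals of 8 adipocyte markers ran from 14420 to 17400 in brown cells at day 7 and from 8845 to 14290 in brown cells at day 4. In white cells they ran from 14670 to 21020 at day 7 and from 6409 to 12150 at day 4, so the day 4 cultures already held adipocyte transcripts. The 8 brown adipocyte markers summed to between 1321 and 7377 in brown cells at day 7 and to between 484 and 1384 in brown cells at day 4. In white cells the sums were 423 to 883 at day 7 and 180.1 to 323 at day 4, with Zic1 at the lower limit on every white array. Brown arrays 19 (day 4) and 22 (day 7) have numbers apart from those of the other brown arrays, 05 to 12. White day 4 arrays 45 and 51 follow the last set of white array numbers that holds both days, 41 to 44. Fits without either pair are given for the Id genes and for listed genes whose calls they ended.

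Id1, Id2 and Id3 were lower at day 7 than at day 4 in both brown and white cells, by 1.70-fold to 2.39-fold, while Id4 was not called in either. The white calls of Id2 and Id3 were lost when a measure of RNA integrity was in the fit. That measure largely moved with day in white cells, so the fit cannot tell their effects apart. In brown cells 3 of the 4 members were called lower, where 6.05% of all tested probe sets were called lower and 12.1% were called in either direction. In white cells 3 of 4 were again called lower, against 10.6% of probe sets called lower and 19% called in either direction. The same 3 genes were called lower in both cell types, as were 3.98% of all tested probe sets. The median log2 difference over the 4 members was -0.84 in brown cells and -0.97 in white cells, beside 0.017 and 0.015 over all genes tested. A call means an adjusted p below 0.05 in limma, with Benjamini-Hochberg adjustment over all tested probe sets. In RNA of whole cultures, fewer cells of a type and less RNA per cell cannot be told apart.

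Id1, a partner of E proteins best known from proliferating and endothelial cells, was separated between days on every array of both cell types. In brown cells its signals at day 7 were 442, 319.9, 327, 363 and 456 (arrays 07, 08, 11, 12 and 22), against 783, 778, 941, 642 and 494 at day 4 (arrays 05, 06, 09, 10 and 19). All 5 day 7 values lay below all 5 day 4 values, and 5.31% of tested probe sets were separated in this way. The means were 382 ± 63.9 at day 7 and 728 ± 168 at day 4 (SD, n = 5 each), a 1.88-fold lower level with a log2 difference of -0.91 ± 0.17 (SE; limma, adjusted p = 0.00073).

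In white cells Id1 had a lowest signal of 170.0, a median of 215 and a highest of 251 at day 7, against 411, 502 and 629.7 at day 4. Again no day 7 array reached the lowest day 4 array, a separation found for 2.56% of tested probe sets. The mean was 214 ± 34.8 at day 7 (SD, n = 6) and 512 ± 85.5 at day 4 (SD, n = 8). Id1 was 2.39-fold lower at day 7, a log2 difference of -1.26 ± 0.14 (SE; limma, adjusted p = 3.18e-06), and 0.595% of tested probe sets had a lower value in this comparison.

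Id2, which is expressed in preadipocytes and many other precursors, fell by a similar amount with a wider spread. In brown cells its signals were 244, 95.7, 157, 206 and 352 at day 7, against 528, 408, 486, 536 and 266 at day 4. The groups overlapped through array 22 at day 7, the highest of its group, and array 19 at day 4, the lowest of its group. The means were 211 ± 96.4 and 445 ± 112 (SD, n = 5 each) at day 7 and day 4, and the level was 2.24-fold lower at day 7 (log2 -1.16 ± 0.31, SE; limma, adjusted p = 0.014). Without array 08 of brown cells at day 7 the log2 difference was -0.91 and the call was lost (adjusted p = 0.061).

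In white cells the lowest, median and highest Id2 signals were 133, 167 and 309 at day 7, against 204, 403 and 590.1 at day 4. Of the 6 day 7 arrays, 4 lay below every day 4 array, and the groups overlapped. Means were 198 ± 70.6 at day 7 (SD, n = 6) and 399 ± 137 at day 4 (SD, n = 8), a 2.0-fold lower level at day 7 (log2 -0.999 ± 0.27, SE; limma, adjusted p = 0.0094). With a ratio of 3′ to 5′ Gapdh signal, a measure of RNA integrity that differed between days in white cells, as a covariate, the Id2 difference was -0.70 and the call was lost (adjusted p = 0.566).

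Id3, another E protein partner and a close relative of Id1, gave signals in brown cells of 1336, 881, 911, 909 and 1951 at day 7, against 1658, 1977, 1981, 2270.3 and 1814 at day 4. Array 22 alone carried the overlap: the other 4 day 7 arrays lay below all day 4 arrays. The means were 1198 ± 462 at day 7 and 1940.0 ± 228 at day 4 (SD, n = 5 each), and Id3 was 1.70-fold lower at day 7 (log2 -0.76 ± 0.19, SE; limma, adjusted p = 0.0082).

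In white cells the lowest, median and highest Id3 signals were 968, 1323 and 1563 at day 7, against 1985, 2329 and 3437 at day 4. No day 7 array reached the lowest day 4 array, as for 2.56% of tested probe sets. Means were 1297 ± 229 at day 7 (SD, n = 6) and 2514 ± 538 at day 4 (SD, n = 8), with Id3 1.93-fold lower at day 7 (log2 -0.95 ± 0.16, SE; limma, adjusted p = 0.000368). With the Gapdh covariate the Id3 difference was -0.86 and the call was lost (adjusted p = 0.162).

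Id4, which in mice has been tied to adipocyte and osteoblast fate, was not called between days. In brown cells its signals were 83.3, 79.8, 64.9, 92.5 and 71.6 at day 7, against 54.6, 62.8, 73.5, 53.9 and 80.2 at day 4, and the groups overlapped. The log2 difference was 0.28, with a 95% confidence interval of -0.11 to 0.66 (limma, adjusted p = 0.38). In white cells the lowest, median and highest signals were 87.5, 104 and 144.0 at day 7, against 71.6, 83.7 and 142.0 at day 4. That log2 difference was 0.22, with an interval of -0.10 to 0.55 (adjusted p = 0.355). A fall in signal of the size seen for the other members lies outside both intervals. Id4 signals were low, beside array medians of 41.9 to 59.0, and no detection call was used. The intervals therefore bound the signal of this probe set and not the Id4 transcript itself.

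**Figure D1:**
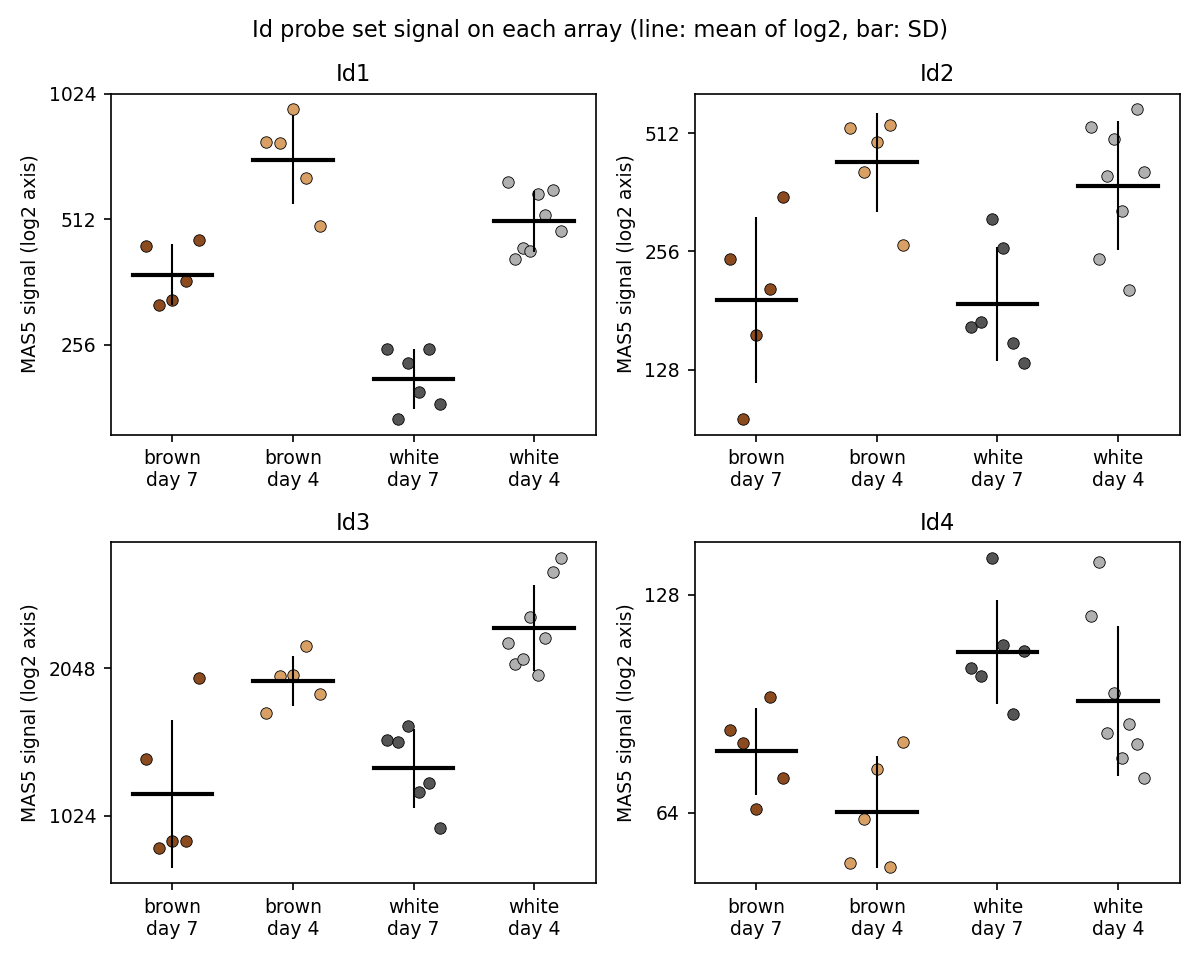
MAS5 signal of the 4 Id probe sets on each array (log2 axis), with groups from left to right: brown cells at day 7 (n = 5) and at day 4 (n = 5), then white cells at day 7 (n = 6) and at day 4 (n = 8). Points are arrays, lines are means of log2 signal and bars are SD on the log2 scale. Day 7 and day 4 arrays are fully separated for Id1 in both cell types and for Id3 in white cells.

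The labels do not group the arrays further. For within-set values the array numbers were divided here into sets holding both days: 05 to 08, 09 to 12 and the pair 19 and 22 in brown cells, and 33 to 36, 37 to 40 and 41 to 44 in white cells. These sets are called runs. Id1 was lower at day 7 in 6 of 6 runs. Id2 and Id3 were lower in 5 of 6, and the exception for both was the pair of brown arrays 22 (day 7) and 19 (day 4), with log2 differences of 0.40 for Id2, 0.10 for Id3 and -0.11 for Id1. Over the other 2 brown runs the differences ran from -1.05 to -1.17 for Id1, from -1.51 to -1.60 for Id2 and from -0.74 to -1.22 for Id3. White runs gave -1.02 to -1.37 for Id1, -0.64 to -1.11 for Id2 and -0.59 to -1.01 for Id3. Id4 was higher at day 7 in 4 of 6 runs and lower in 2.

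Brown arrays 19 and 22 were left out after their Id values had been seen, and since their Id2 and Id3 values ran against the falls, this choice itself makes the differences larger, so these are values without a test. Without them the falls in brown cells were -1.11 for Id1, -1.55 for Id2 and -0.98 for Id3 on the log2 scale. With the runs as a block the 3 genes kept their calls in both cell types, with the highest adjusted p at 0.0198 for Id2 in white cells.

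**Figure D2:**
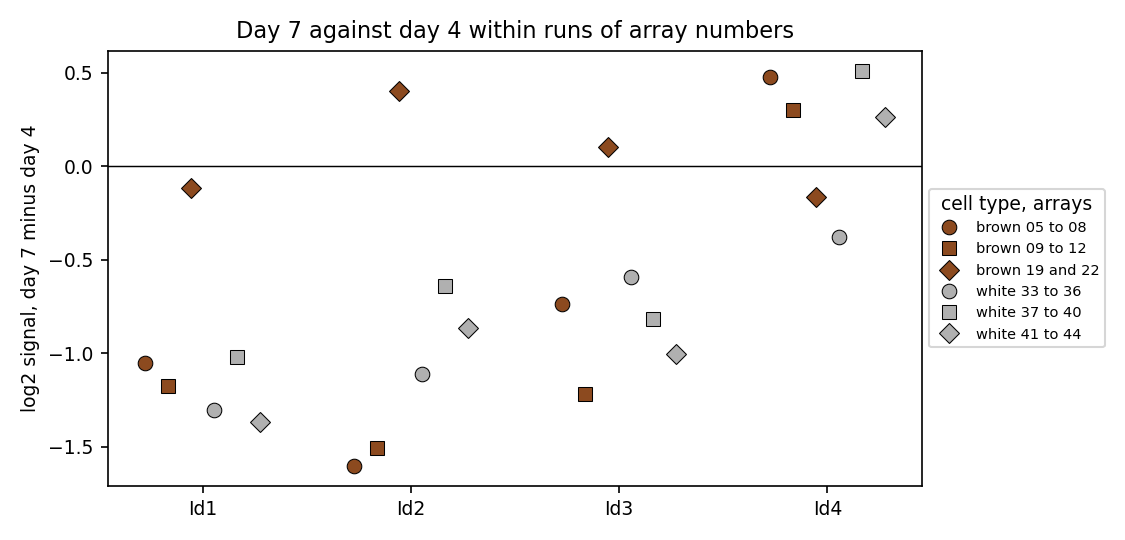
Difference in mean log2 signal, day 7 minus day 4, within each run (a set of array numbers holding both days), for each Id gene (brown symbols: 3 runs of brown cells; grey symbols: 3 runs of white cells). The pair of brown arrays 19 and 22 lies near 0 for Id1 (-0.11) and above 0 for Id2 (0.40) and Id3 (0.10); the remaining runs lie below 0 for these 3 genes.

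A measure of RNA integrity moved with day in white cells. The ratio of 3′ to 5′ Gapdh signal, which rises with RNA degradation or short cDNA, was 1.36 ± 0.204 at day 7 (SD, n = 6) and 0.943 ± 0.0955 at day 4 (SD, n = 8; exact permutation test, two-sided, p = 0.00133, adjusted over 8 comparisons 0.00533). In brown cells it was 0.889 ± 0.0379 at day 7 and 0.884 ± 0.0825 at day 4 (SD, n = 5 each; exact permutation test, p = 0.897). The same ratio for actin was 2.38 ± 0.296 at day 7 and 1.56 ± 0.186 at day 4 in white cells (SD, exact permutation test, adjusted p = 0.00533). In brown cells the actin ratio was 1.61 ± 0.206 and 1.47 ± 0.137 (SD, exact permutation test, adjusted p = 0.356). The Gapdh ratio ran from 1.09 to 1.54 on white day 7 arrays and from 0.841 to 1.10 on white day 4 arrays. With this ratio in the fit (the Gapdh covariate), 37 probe sets were called between days in white cells, against 1595 without it. Because ratio and day largely moved together, neither a lost nor a kept call can tell them apart. The Id1 fall in white cells kept its call (log2 -1.26, adjusted p = 0.0192), and those of Id2 (-0.70, adjusted p = 0.566) and Id3 (-0.86, adjusted p = 0.162) lost theirs. Without white day 4 arrays 45 and 51, all 3 kept their calls. In brown cells the covariate left all 3 calls in place.

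Summed signals of 13 cell cycle genes were lower at day 7, as were Id1, Id2 and Id3 but not Id4. They ran from 2786 to 5165 in brown cells at day 7 and from 7817 to 10520 at day 4, with no overlap. In brown cells 11 of 13 genes were called lower, against 6.50% of all genes. In white cells they ran from 1512 to 3546 at day 7 and from 3671 to 7203 at day 4. There 11 of 13 were called lower, against 10.4% of all genes. Second probe sets of Tk1 (0.56 in brown and 1.15 in white cells) and Mcm5 (0.43 in white cells) had the opposite sign and were not called. In brown cells the second Mcm5 probe set gave -0.73, also not called, and the other Plk1 probe sets kept the sign. The part of the cell cycle genes in the Id results was not tested. Other cell types could be present in the cultures: 10 myoblast and muscle markers summed to 990.5 to 1429 at day 7 and 1569 to 2840 at day 4 in brown cells, and to 718 to 1231 at day 7 and 579 to 1017 at day 4 in white cells, with Myf5 at the lower limit on all arrays. The 13 macrophage markers summed to 658.9 to 871 at day 7 and 543 to 643 at day 4 in brown cells, and to 958 to 1507 at day 7 and 655 to 1865 at day 4 in white cells, with Itgam at the lower limit on all arrays and Fcer1g on all brown arrays. In smooth muscle and pericyte markers, of which 10 were measured, sums were 4122 to 6018 and 3197 to 4191 at day 7 and day 4 in brown cells, and 6499 to 9476 and 4611 to 8477 in white cells. The part of these cells in the Id results was not tested either.

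At day 4, Id1 was higher and Id4 lower in brown than in white cells, and at day 7 Id1 was higher in brown cells. In this comparison 23.0% of tested probe sets were called at day 4 (908 higher and 1025 lower in brown cells, or 1087 higher and 788 lower when arrays were brought to equal medians) and 25.2% at day 7. Higher calls made up 10.8% and lower calls 12.2% at day 4, and higher calls 12.8% at day 7. Of the 4 members 2 were called at day 4 and 1 at day 7, and 1 of 4 is about the share called among all probe sets.

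Id1 signals averaged 728 ± 168 in brown cells and 512 ± 85.5 in white cells at day 4, a 1.40-fold difference (log2 0.49 ± 0.15, SE; limma, adjusted p = 0.0191). Of the 5 brown arrays 4 lay above every white array, and the groups overlapped through array 19. The call was lost without array 05, 06 or 09 of brown cells (adjusted p of 0.053, 0.052 and 0.080), and with the runs as a random block (log2 0.48, adjusted p = 0.057). At day 7 the means were 382 ± 63.9 in brown cells and 214 ± 34.8 in white cells, and all 5 brown arrays lay above all 6 white arrays, as they did for 8.71% of tested probe sets. Id1 was 1.78-fold higher in brown cells (log2 0.83 ± 0.16, SE; limma, adjusted p = 0.00036). With the Gapdh covariate this was 0.83 and not called (adjusted p = 0.104), and the ratio itself differed at day 7, at 0.889 ± 0.0379 in brown and 1.36 ± 0.204 in white cells (exact permutation test, n = 5 and 6, p = 0.00433, adjusted 0.00866). Ratio and cell type largely moved together at day 7, so this fit cannot tell them apart.

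Endothelial cells are a known site of Id1 expression, and markers of them differed between the cultures. The 11 measured endothelial markers summed to 1100.0 to 1624 in brown cells and 236 to 449.9 in white cells at day 7, and to 709 to 1146 in brown cells and 310.2 to 521 in white cells at day 4. None was at the lower limit on all arrays of a group. Of the 9 tested endothelial markers, 6 were called higher in brown cells at each day, and 1 lower at day 7. Over all genes, 11.7% were called higher in brown cells at day 4 and 13.2% at day 7. Between days in brown cells, 3 of the 9 were called higher at day 7, against 6.48% of all genes. Of 13 cell cycle genes, 11 were called higher in brown cells at day 4 and 7 at day 7, beside the same shares of all genes. A second Tk1 probe set (-0.73 at day 4 and -1.32 at day 7) and a second Mcm5 probe set (-0.56 at day 7) had the opposite sign and were not called. The part of endothelial and dividing cells in the Id1 difference was not tested.

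Id4 averaged 65.0 ± 11.6 in brown cells and 93.7 ± 24.5 in white cells at day 4 (SD, n = 5 and n = 8), 1.42-fold lower in brown cells (log2 -0.51 ± 0.17, SE; limma, adjusted p = 0.0302). The arrays overlapped, and the call was lost when any 1 of arrays 05, 06 and 10 (brown) or 33 and 34 (white) was left out (adjusted p between 0.0596 and 0.0863), with only the groups compared in the fit (0.0702) and with the runs as a random block (0.0671). At day 7 the means were 78.4 ± 10.7 in brown cells and 108.0 ± 19.2 in white cells (SD, n = 5 and n = 6), a log2 difference of -0.45 ± 0.18 (SE; limma, adjusted p = 0.0638). That difference passed the threshold with array weights (-0.40, adjusted p = 0.038), with only the groups compared (0.0344), and without array 34 of day 4 (0.0403) or array 43 of day 7 (0.0468) of white cells.

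Id2 and Id3 did not pass the test between brown and white cells. For Id2 the log2 difference was 0.20 at day 4 (95% confidence interval -0.38 to 0.77; limma, adjusted p = 0.672) and 0.03 at day 7 (-0.58 to 0.64; adjusted p = 0.953). For Id3 it was -0.36 at day 4 (-0.71 to -0.0029; adjusted p = 0.143) and -0.17 at day 7 (-0.54 to 0.20; adjusted p = 0.543). These intervals leave room for differences as large as that of Id1 at day 4.

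The change between days was also compared between the cell types. The log2 change in brown cells minus that in white cells was 0.34 for Id1 (95% confidence interval -0.11 to 0.79; limma, adjusted p = 0.773), -0.16 for Id2 (-1.001 to 0.68; 0.964), 0.19 for Id3 (-0.33 to 0.70; 0.919) and 0.05 for Id4 (-0.45 to 0.56; 0.981). None of the 4 passed, and 0.214% of all tested probe sets did (18, of which 14 were higher and 4 lower; 4 and 2 with equal medians), while 670 had an unadjusted p below the same threshold.

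**Figure D3:**
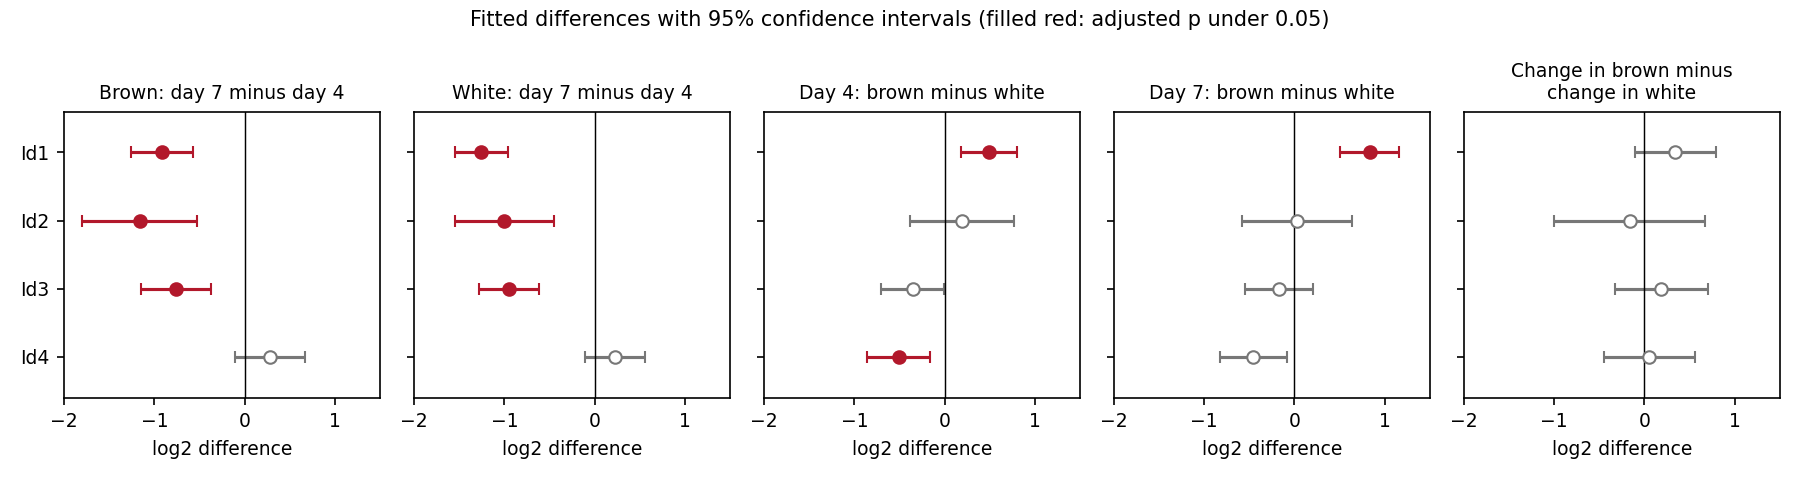
Fitted log2 differences with 95% confidence intervals for the 4 Id genes in the 5 comparisons named above each panel. Filled red points have an adjusted p under the threshold. Id1, Id2 and Id3 lie left of 0 in both day comparisons, Id1 lies right of 0 in both brown against white comparisons, and all 4 intervals of the last panel include 0.

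In order of mean signal, Id1 was highest in brown cells at day 4, then white cells at day 4, brown cells at day 7 and white cells at day 7. Only the last pair of neighbours in this order did not overlap. The order was the same for Id2, where every pair of neighbours overlapped. For Id3 it was white cells at day 4, brown cells at day 4, white cells at day 7 and brown cells at day 7, and only the middle pair did not overlap. For Id4 it was white cells at day 7, white cells at day 4, brown cells at day 7 and brown cells at day 4, with overlap between all neighbours.

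Within groups, arrays high in Id2 tended to be high in Id3. Over the 24 arrays, deviations of log2 signal from the group means gave Pearson r = 0.605 and Spearman rho = 0.588 for Id2 and Id3 (permutation within groups, adjusted over 6 pairs, p = 0.0494 and 0.048), and r = 0.597 without the 2 arrays farthest from the median of Id2. Without white day 4 arrays 45 and 51 the correlation was 0.586 and no longer passed (adjusted p = 0.0959), and leaving out a further 2 farthest arrays lowered it to 0.383. Id1 and Id2 gave r = 0.480 and rho = 0.483 (permutation, adjusted p = 0.0657 and 0.0751), and Id1 and Id3 gave 0.346 and 0.341 (0.193 and 0.230). Pairs with Id4 gave r of -0.134, -0.038 and -0.178.

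Signals centred on each probe set's mean over the 24 arrays were used to find the genes closest in pattern to each member, by the root mean square difference of log2 signal. For Id1 these were Cks1b (0.307; r = 0.894), Prpf31 (0.308), Prmt1 (0.315), H2az1 (0.322) and Rpa1 (0.329). Cks1b encodes a subunit of cyclin-dependent kinases and Rpa1 a DNA replication protein. Each of the 5 was called lower at day 7 in both cell types and higher in brown cells at both days, as Id1 was. These shared calls largely follow from how the genes were picked. For Id2 they were Mre11a (0.434; r = 0.820), Polr3k (0.442), Id3 itself (0.455; r = 0.781), Plpp1 (0.456) and Mis18a (0.458). For Id3 they were S100a6 (0.267; r = 0.877), Nans (0.268), Rpl13a (0.268), Glipr2 (0.284) and Tubb3 (0.289), while Id2 ranked only 269 in nearness to Id3. In nearness to Id1, Id2 ranked 395 and Id3 510. For Id4 they were Hdlbp (0.207; r = 0.822), Pdxdc1 (0.220), Wtap (0.241), Crtap (0.241) and Zfp651 (0.249). The correlations are over the same 24 arrays, share the group means and describe likeness only.

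None of the E proteins, the direct partners of Id proteins, was called lower between days. All 3 were tested, none was called in brown cells and 1 was called higher in white cells. Among all genes, 6.48% were called higher and 6.50% lower in brown cells, and 9.03% and 10.4% in white cells. The absence of a lower call among 3 genes is near those shares. Tcf4 averaged 174 ± 23.0 at day 7 (SD, n = 6) and 97.1 ± 34.1 at day 4 (SD, n = 8) in white cells, a log2 difference of 0.91 ± 0.19 (SE; limma, adjusted p = 0.00193). With the Gapdh covariate that difference was 0.64 (adjusted p = 0.438). In brown cells it was 0.56 ± 0.23 (adjusted p = 0.114). Tcf4 was lower in brown than in white cells at day 4 (log2 -0.83 ± 0.20, adjusted p = 0.00378) and at day 7 (-1.19 ± 0.22, adjusted p = 0.000208; with the covariate -0.88, adjusted p = 0.216). Tcf12 gave 0.39 ± 0.26 in brown and 0.40 ± 0.22 in white cells between days (adjusted p of 0.367 and 0.215). Tcf3 was called between brown and white cells at day 4 (0.39, adjusted p = 0.0313), a call lost when any 1 of the day 4 arrays 06, 10 and 19 (brown) or 33 and 34 (white) was left out (adjusted p of 0.0524 to 0.083).

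Among 12 tested tissue-restricted factors with a basic helix-loop-helix, which pair with E proteins or bind E boxes, 1 was called lower between days in brown cells, and 1 higher and 1 lower in white cells. Over all genes, 6.48% were called higher and 6.50% lower in brown cells, and 9.03% and 10.4% in white cells. Myog, the muscle regulator myogenin, averaged 63.5 ± 27.4 at day 7 and 215 ± 101 at day 4 in brown cells (SD, n = 5 each; log2 -1.72 ± 0.35, adjusted p = 0.00186), and at day 4 it was higher in brown than in white cells (2.34 ± 0.32, adjusted p = 5.84e-06). Myod1, which acts upstream of Myog in muscle, was higher in brown cells at day 4 (0.59, adjusted p = 0.0153; 0.0598 without brown day 4 array 19). In white cells Srebf1, the regulator of fatty acid synthesis genes also known as ADD1, was higher at day 7 (0.92 ± 0.20, adjusted p = 0.00231) and Twist2, a mesenchymal repressor, was lower (-0.74 ± 0.19, adjusted p = 0.00655). Both calls were lost with the Gapdh covariate (0.42 and -0.15, adjusted p of 0.655 and 0.898). Tcf21 was lower in brown than in white cells by log2 differences of -4.83 at day 4 and -5.09 at day 7 (adjusted p of 1.41e-14 and 1.67e-14), with 4 brown arrays at the lower limit of signal. With that limit at the 40th percentile the differences were -3.46 and -3.41.

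Of the other helix-loop-helix repressors, 4 were tested. Bhlhe40, a stress and clock-related repressor, was higher at day 7 in brown cells (196 ± 36.98 at day 7 and 95.3 ± 13.0 at day 4, SD, n = 5 each; log2 1.03 ± 0.20, adjusted p = 0.00134), and its difference in white cells was 0.11 (adjusted p = 0.696). At day 4 Bhlhe40 was lower in brown than in white cells (-0.61, adjusted p = 0.017), a call lost without array 06 or 09 of brown cells (adjusted p of 0.0502 and 0.0517). Hes1, a Notch target, was higher in brown than in white cells at day 4 (0.48, adjusted p = 0.0205; 0.0507 without brown day 4 array 06) and at day 7 (0.86, adjusted p = 0.000246; 0.67 with the Gapdh covariate, adjusted p = 0.198).

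On the BMP side, the fall was shared by Smad6, an inhibitory Smad that BMP signals induce. Its lowest, median and highest signals were 110.1, 130.1 and 159 at day 7 and 191, 284 and 418 at day 4 in brown cells, and 152, 203 and 261 at day 7 and 329.8, 370.4 and 458 at day 4 in white cells. The groups did not overlap in either cell type, a separation found for 5.31% of tested probe sets in brown and 2.56% in white cells. The log2 differences were -1.06 ± 0.17 in brown cells (SE; limma, adjusted p = 0.000293) and -0.94 ± 0.15 in white cells (adjusted p = 0.000175), and the call in white cells was kept with the Gapdh covariate. Smad6 was lower in brown than in white cells at day 7 (-0.58 ± 0.17, adjusted p = 0.0113; -0.25 with the covariate, adjusted p = 0.738). At day 4 the difference was -0.46 ± 0.16 (adjusted p = 0.0359), a call lost when any 1 of the day 4 arrays 05, 06 and 10 (brown) or 33, 34 and 37 (white) was left out (-0.32 to -0.47, adjusted p of 0.0523 to 0.158).

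Smad7, the other inhibitory Smad, gave -0.50 ± 0.21 in brown cells and -0.23 ± 0.18 in white cells between days (adjusted p of 0.127 and 0.406). Between brown and white cells at day 7 it was -0.57 (adjusted p = 0.0384), a call lost when any 1 of the day 7 arrays 07, 08, 11 and 12 (brown) or 36, 39, 40 and 44 (white) was left out (adjusted p of 0.0515 to 0.0932). Of the signal-carrying Smads, Smad1 was lower in brown cells at day 4 (-0.73 ± 0.17, adjusted p = 0.00306), and Smad2, which serves TGF-beta and activin signals, was higher in brown cells at day 7 (0.58 ± 0.15, adjusted p = 0.00471; 0.27 with the covariate, adjusted p = 0.66). Smad5 gave 0.13 ± 0.40 in brown and 0.29 ± 0.34 in white cells between days, and Smad4, the common partner, 0.08 ± 0.20 and -0.11 ± 0.17. None of these 4 passed between days in either cell type.

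Of 5 other BMP target genes tested, Smad6 alone was called between days. Among all genes, 6.48% were called higher and 6.50% lower in brown cells, and 9.03% and 10.4% in white cells. Counts from lists this short lie near these shares, which also stand beside the Smads, ligands, receptors and antagonists. Msx1 gave 0.12 in brown and 0.17 in white cells, Junb 0.19 and 0.04, and Hey1 0.54 and 0.13, with adjusted p of 0.395 or more. Of 3 BMP ligands tested, none was called between days, and Bmp4 was lower in brown than in white cells at day 4 (-0.56 ± 0.14, adjusted p = 0.00325). A second Bmp4 probe set gave the same size without passing (-0.56, adjusted p = 0.143).

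Among 6 BMP receptors tested, Eng, the co-receptor endoglin, was lower at day 7 in brown cells (1014 ± 124 at day 7 and 1647 ± 515 at day 4, SD, n = 5 each; log2 -0.66 ± 0.15, adjusted p = 0.00536) and gave -0.01 ± 0.13 in white cells (adjusted p = 0.956). Acvrl1, a type I receptor, was lower at day 7 in white cells (-0.51, adjusted p = 0.0177), a call lost without array 35 or 43 of day 7 (adjusted p of 0.0565 and 0.0542), without arrays 45 and 51 of day 4 (0.0822) and with the Gapdh covariate (-0.08, adjusted p = 0.939). One of its other probe sets gave -0.53 and another -0.04. Bmpr2, the type II receptor, was lower in brown than in white cells at day 4 (-1.79 ± 0.41, adjusted p = 0.00247) and day 7 (-1.98 ± 0.44, adjusted p = 0.00155; -1.01 with the covariate, adjusted p = 0.548). Bmpr1a was lower at day 4 (-0.90 ± 0.29, adjusted p = 0.0257), a call lost when any 1 of the day 4 arrays 06 and 19 (brown) or 33 and 34 (white) was left out (adjusted p of 0.053 to 0.0912).

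Of 4 BMP antagonists tested, Fst, which encodes follistatin, was lower at day 7 in white cells (-0.74, adjusted p = 0.043), a call lost when any 1 of the arrays 36, 40, 43 and 44 of day 7 or 33, 37, 38, 41 and 45 of day 4 was left out (adjusted p of 0.0559 to 0.0997). Nbl1 was lower in brown cells at day 4 (-1.04) and day 7 (-1.35), and so was Twsg1 (-0.68 and -0.61), with adjusted p of 0.0172 or less. Twsg1 at day 7 was -0.77 with the Gapdh covariate (adjusted p = 0.22).

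**Figure D4:**
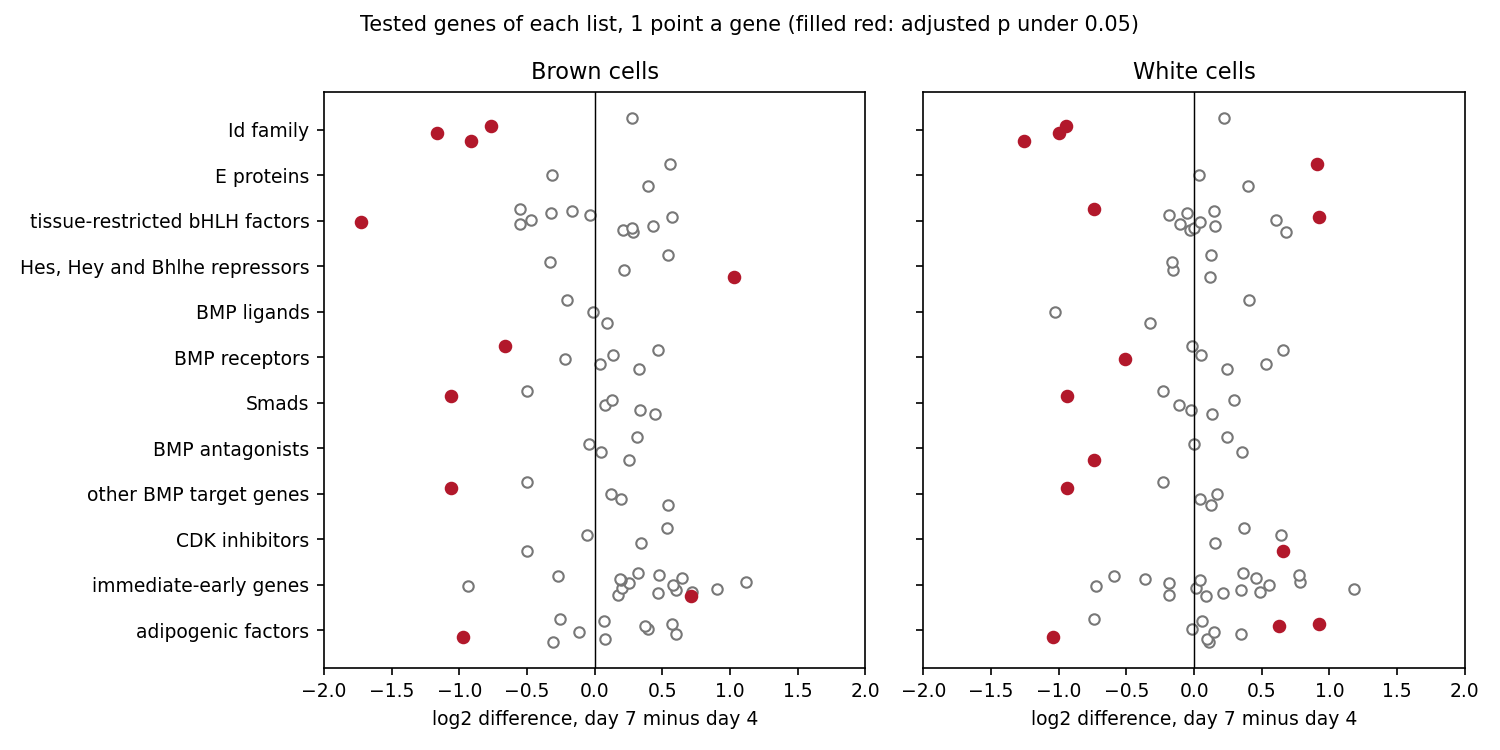
Fitted log2 difference, day 7 minus day 4, of each tested gene in the Id family and in the lists of partners, BMP pathway genes, CDK inhibitors, immediate-early genes and adipogenic factors, in brown cells (left) and white cells (right). Filled red points have an adjusted p under the threshold. Id1, Id2, Id3, Smad6 and Cebpd are lower at day 7 in both panels.

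CDK inhibitors are raised in several cell types when Id proteins are low, and all 4 listed were tested. None was called between days in brown cells, where 6.48% of all genes were called higher and 6.50% lower. Cdkn1a was called higher at day 7 in white cells (0.65, adjusted p = 0.0383), a call lost with the Gapdh covariate (0.50, adjusted p = 0.649) and when any 1 of the arrays 35, 36, 43 and 44 of day 7 or 33, 45 and 51 of day 4 was left out (0.05002 to 0.0953). Cdkn2b was lower in brown than in white cells at day 4 (-2.31 ± 0.22, adjusted p = 1.78e-08) and day 7 (-2.15 ± 0.24, adjusted p = 2.22e-07), and Cdkn1c likewise (-1.29 and -1.11). Cdkn1a was lower in brown cells at day 7 (-1.65, adjusted p = 1.87e-05), but a second probe set gave 0.23. Cdkn2a at day 7 was -1.02 (adjusted p = 0.0357), a call lost when any 1 of the day 7 arrays 11, 12 and 22 (brown) or 35, 36 and 39 (white) was left out (-0.67 to -1.03, adjusted p of 0.0575 to 0.148). At day 7 the values with the Gapdh covariate were -1.56 for Cdkn1c (adjusted p = 0.0763), -1.48 for Cdkn1a (0.0596) and -0.26 for Cdkn2a (0.895).

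Immediate-early genes respond within minutes to serum and handling, as the Id genes can. Of 17 tested, 1 was called higher between days in brown cells and none in either direction in white cells. Among all genes, 6.48% were called higher and 6.50% lower in brown cells, and 9.03% and 10.4% in white cells. Atf3 was higher at day 7 in brown cells (0.71, adjusted p = 0.0237), a call lost when array 08 of day 7 or array 06 or 10 of day 4 was left out (adjusted p of 0.0594 to 0.0856). A second Atf3 probe set gave 0.14 (adjusted p = 0.866). Between brown and white cells, Myc was higher in brown cells at day 4 (0.77, adjusted p = 0.0157; 0.0533 without array 10 of brown cells) and at day 7 (1.09, adjusted p = 0.0015). Fosl1 was higher in brown cells at day 4 (1.60) and day 7 (1.40), Atf3 (0.87; 0.24 and not called on its second probe set) and Btg2 (0.78) were higher at day 7, and Klf4 (-1.12) and Ier3 (-0.68) were lower at day 4. At day 7 the calls of Fosl1, Atf3 and Btg2 were lost with the Gapdh covariate, at log2 differences of 0.43, 0.93 and 1.12. Fosl1 at day 7 was 0.78 with the lower limit of signal at the 40th percentile (adjusted p = 0.0508). Single arrays also ended calls: for Fosl1 arrays 07, 11, 22 and 35 (adjusted p of 0.0622 to 0.0853), for Btg2 arrays 07 and 36 (0.0829 and 0.0602), and for Ier3 arrays 05, 06, 10, 19, 33, 37, 38, 45 and 51 (0.0534 to 0.0901).

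Among 10 adipogenic factors tested, Cebpd, an early factor of adipogenesis, was also called lower at day 7 in both cell types, as were 3.98% of all tested probe sets. It averaged 618 ± 152 at day 7 and 1204 ± 236 at day 4 in brown cells (SD, n = 5 each; log2 -0.97 ± 0.22, adjusted p = 0.00452). In white cells it averaged 626 ± 190 at day 7 and 1285 ± 393 at day 4 (SD, n = 6 and n = 8; -1.04 ± 0.19, adjusted p = 0.000607, and -0.81 with the Gapdh covariate, adjusted p = 0.283). Pparg, the master regulator of adipocytes, was called higher at day 7 in white cells (0.63, adjusted p = 0.0239), a call lost when array 43 or 44 of day 7 or array 45 of day 4 was left out (adjusted p of 0.0503 to 0.0669) and with the covariate (0.27, adjusted p = 0.813), and gave 0.37 in brown cells (adjusted p = 0.325). Pparg was higher in brown than in white cells at day 4 (1.17) and day 7 (0.91), and Cebpa was higher at day 4 (0.68; 0.59 and not called with quantile normalization, adjusted p = 0.0574). Cebpb (-0.90 and -0.92), Klf5 (-1.65 and -1.25) and Gata2 (-0.999 and -1.26) were lower in brown cells at day 4 and day 7, and Stat5a was higher by 0.36 and 0.37 (adjusted p of 0.0425 and 0.0448). A second Stat5a probe set gave 0.09 and 0.06 (adjusted p of 0.672 and 0.812). Klf5 was at the lower limit of signal on 3 of 5 brown arrays at day 4 and 1 of 5 at day 7, so its differences depend on that limit. With the limit at the 40th percentile they were -0.52 at day 4 (adjusted p = 0.047) and -0.45 at day 7 (adjusted p = 0.0986). The day 7 calls of Cebpb, Klf5, Gata2 and Stat5a were lost with the Gapdh covariate, at log2 differences of -0.73, -1.07, -0.79 and 0.56. Klf5 at day 7 also lost its call without array 07, 11, 39 or 40 (0.0512 to 0.0823). Stat5a lost it without any 1 of 9 arrays at day 4 (05, 06, 10, 19, 33, 34, 37, 38 and 45; 0.059 to 0.11) and of 10 arrays at day 7 (07, 08, 11, 35, 36, 39, 40 and, through the shared spread, 05, 10 and 37; 0.0507 to 0.122).

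Further calls of listed genes were lost when a pair of arrays was left out. Without white day 4 arrays 45 and 51 these were Cdkn1a (0.41, adjusted p = 0.179), Pparg (0.42, 0.115) and Fst (-0.81, 0.0587) between days in white cells. Between brown and white cells at day 4 they were Myc (0.56, 0.0525), Ier3 (-0.52, 0.106) and Stat5a (0.35, 0.0622). Without brown arrays 19 and 22 the calls lost at day 4 were Tcf3 (0.38, 0.0528), Myod1 (0.47, 0.0573), Bmpr1a (-0.71, 0.094), Ier3 (-0.69, 0.0631) and Stat5a (0.31, 0.0899), and those lost at day 7 were Cdkn2a (-0.67, 0.149) and Fosl1 (1.21, 0.0906).

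Other settings also ended calls of listed genes. With equal medians these were Atf3 between days in brown cells, Cdkn1a between days in white cells, Bhlhe40, Smad6 and Ier3 between cell types at day 4 and Smad7 at day 7 (adjusted p of 0.0534 to 0.101). With only the groups compared in the fit they were Pparg between days in white cells, Tcf3, Bmpr1a, Smad6 and Stat5a at day 4 and Btg2 at day 7 (0.0553 to 0.0744). With the runs as a random block they were Tcf3, Bhlhe40, Smad6, Ier3 and Stat5a at day 4 and Smad7, Cdkn2a, Fosl1, Btg2, Klf5 and Stat5a at day 7 (0.053 to 0.111). With the Gapdh covariate Fst between days in white cells was -1.52 (0.0811), Smad6 at day 4 was -0.40 (0.0669) and Smad7 at day 7 was -0.73 (0.296). The runs as a block ended the call of Acvrl1 between days in white cells (-0.40, 0.0591). Quantile normalization ended that of Cdkn2a at day 7 (-0.93, 0.0514), and array weights that of Ier3 at day 4 (-0.63, 0.0584). Without the filter on low signals, Fst and Cdkn1a between days in white cells, Bmpr1a, Smad6 and Ier3 at day 4 and Smad7, Cdkn2a and Fosl1 at day 7 lost their calls (0.0505 to 0.0793), and without the intensity trend Fst and Cdkn1a in white cells, Ier3 at day 4 and Stat5a at both days did (0.0502 to 0.0575).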

How the data were processed

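Expression was measured on 24 Affymetrix arrays of total RNA, Trizol-extracted and amplified in a single round per the labels' protocols. The deposited values are MAS5 signal intensities, 1 column an array, per the submitters' processing notes; the depth of an array is not a count, and the number of arrays limits the precision. From these, the signals of each array were scaled to a trimmed mean of 150 (2% at each end), floored at the 20th percentile of all values (8.21) and log2 transformed. Probe sets above their array's 40th percentile on at least 5 arrays were kept, and 66 control probe sets were left out, so that 8397 of 12488 remained (6281 genes). In the probe annotation, 10855 probe sets had 1 gene symbol, 396 several and 1237 none.

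Groups were fitted together in limma 3.58.1 (R 4.3.3) with an intensity trend, and adjusted by Benjamini-Hochberg over all 8397, threshold 0.05. SE is the coefficient over its t value. Correlations, ratios and their permutation tests were computed in Python 3.11.15 with numpy 2.4.6, with ranks from scipy 1.17.1. In data simulated for white cells at day 7 against day 4 on 8397 probe sets, 26.9%, 67.2% and 98.5% of changes of 0.5, 1 and 2 log2 were recovered. The changes were put into 67, 67 and 66 probe sets with independent noise. The data had far more calls (1595), so these rates need not hold for them.

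The members and gene lists were chosen with earlier results of these data known. All 4 members are named. A listed gene is named when called in at least 1 of 5 comparisons, or when it is an E protein or Smad, and is read from its tested probe set of highest mean signal. The remaining tested BMP target genes are named as well. The 5 genes nearest in pattern to each member are named. Alternatives to the floor, the filter, the scaling, the trend, the weights and the arrays used are given in the closing section.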

Additional observations from a re-analysis of the deposited data

How the results depend on the processing

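Under 14 alternative settings and 24 fits without a single array, the falls of Id1, Id2 and Id3 at day 7 kept their direction in both cell types; leaving out an array of the other cell type cannot move the difference, only its error. Calls were lost for Id2 in brown cells without brown day 7 array 08 and Id2 and Id3 in white cells with the Gapdh ratio as a covariate (-0.7041 and -0.8621). Leaving out each array gave -1.05 to -0.81 (Id1), -1.38 to -0.91 (Id2) and -0.96 to -0.67 (Id3) in brown cells.

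Between brown and white cells at day 4, calls were lost for Id1 (0.48, random block) and Id4 (-0.51, only the groups compared; -0.50, random block), with single-array ranges of 0.39 to 0.62 and -0.59 to -0.42. At day 7, Id1 was 0.83 with the Gapdh covariate (not called), and Id4 was called with array weights (-0.40) and with only the groups compared (-0.45), ranging from -0.52 to -0.37 over single arrays. Uncalled values that changed sign were Id2 at day 7 (-0.0057 with array weights, -0.0059 with a random block, -0.31 with the Gapdh covariate, -0.18 without brown arrays 19 and 22, a setting chosen after seeing the data; single arrays -0.18 to 0.28) and the difference of changes for Id3 (-0.0467 with array weights, -0.0314 without brown arrays 19 and 22; single arrays -0.0092 to 0.28), Id2 (-0.38 to 0.0896) and Id4 (-0.0371 to 0.14). The cause was not tested. Fitting only the groups compared was not possible for the difference of changes.

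The number of probe sets called between days in brown cells was 1012, against 1665 with array weights and 1612 with the runs as a block (668 to 1165 over single arrays, the lowest without brown day 7 array 08). In white cells it was 1595, against 37 with the Gapdh covariate and 1053 without white day 4 arrays 45 and 51. Between brown and white cells at day 7 it was 2112, against 274 with the covariate. For the difference of changes it was 18, against 10 (no floor), 35 (floor at the 40th percentile), 10 (no filter), 8 (filter at the 60th percentile), 6 (equal medians), 11 (no trend), 45 (array weights), 48 (block) and 5 (covariate), and 4 to 23 over single arrays. Correlations of Id2 and Id4 (0.03256; 0.0467) and of Id3 and Id4 (0.04368; 0.004487) changed sign with quantile normalization and without white day 4 arrays 45 and 51, and without those arrays that of Id2 and Id3 (0.5864) lost its call. No paired analysis was done because the labels do not say which arrays share an animal or culture.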
